A study of Mus musculus with 22 samples.

Results

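The genes examined were 10 markers of liver sinusoidal endothelial cells, namely Stab1, Stab2, Lyve1, Clec4g, Fcgr2b, Kdr, Oit3, Bmp2, Pecam1 and Dnase1l3. They were chosen by symbol from a table of read counts per gene in mouse liver, and all 10 were found among its 15448 genes. The livers came from 22 male wild-type CD2F1 mice, and polyA RNA was sequenced. In the C26-TDCA group (n = 8), mice carried C26 tumour cells, a mouse colon carcinoma line used to produce cancer cachexia, and received taurodeoxycholic acid (TDCA) by daily intraperitoneal injection at 10 mg/kg. C26 mice (n = 8) carried the tumour cells without TDCA, and CT mice (n = 6) were sham-injected, received vehicle and had no tumour. The sources used here do not state the ages of the mice, the day of sampling or the size of the tumours. TDCA is a secondary bile acid conjugated to taurine, made by way of gut bacteria, and the study asked how it acts on hepatic cholesterol in cachectic mice. There was no TDCA group without tumour, so the effect of TDCA was measured in tumour-bearing mice only.

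Liver sinusoidal endothelial cells line the capillaries between the plates of hepatocytes. Their wall is fenestrated and lacks an organised basement membrane, so plasma reaches the hepatocytes directly. They clear waste molecules from blood through scavenger receptors and lectins, take up immune complexes through an Fc receptor, respond to vascular endothelial growth factor (VEGF) made largely by hepatocytes, and secrete bone morphogenetic proteins (BMPs) that set hepatocyte hepcidin, the hormone of iron balance. When these cells lose their identity, a change called capillarisation, they take on features of ordinary capillary endothelium.

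By their roles, the members form 4 groups. Stab1 and Stab2 encode the stabilins, scavenger receptors that take up modified proteins and, for Stab2, hyaluronan. Lyve1 encodes a hyaluronan receptor shared with lymphatic endothelium and some macrophages, Clec4g the C-type lectin LSECtin, and Fcgr2b the inhibitory IgG receptor, which Kupffer cells and B cells also carry. Kdr encodes VEGF receptor 2 and Pecam1 the junction protein CD31, and both are found in endothelium of every vessel type. The secreted members are Bmp2, Dnase1l3, a nuclease that digests DNA in chromatin, and Oit3, a zona pellucida domain protein enriched in these cells.

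In GRCm38 all 10 are protein-coding genes, and Bmp2 alone lies on the plus strand. Their spans are 14:31139013-31168641 for Stab1, 10:86841198-87008025 for Stab2, 7:110850607-110863239 for Lyve1, 8:3707064-3720651 for Clec4g, 1:170958617-170976547 for Fcgr2b, 5:75932827-75978458 for Kdr, 10:59422958-59441778 for Oit3, 2:133552159-133562885 for Bmp2, 11:106654217-106750628 for Pecam1 and 14:7964533-7994573 for Dnase1l3. Exons of 4 members overlap exons of a gene on the opposite strand: Stab1 over 112 bases with Nt5dc2, Stab2 over 141 bases with Gm16268, Clec4g over 146 bases with Gm16553, and Fcgr2b over 155 bases with Gm38204. The sources used here do not say whether the counting used strand, so reads in these overlaps cannot be assigned with certainty. Nt5dc2 averaged 3.41 CPM in C26-TDCA, 3.16 in C26 and 5.75 in CT livers (CPM, TMM-normalised counts scaled to a library of 1000000), and Gm16268 and Gm16553 averaged at most 0.402 CPM in each group, far below the members they overlap.

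Promoter sequences were at hand for 5 members (RefSeq, GRCm38.p6, 250 bases before to 50 bases after the start). Those of the 2 stabilins are shown because the paralogs differed in how they varied, and those of Clec4g and Fcgr2b because both genes rose without overlap, as described further on. Each is written on the strand of the gene, and capitals mark the motif AGGAAG, an ETS-type core, or its reverse complement CTTCCT.
Stab1, 14:31168592-31168891, minus strand: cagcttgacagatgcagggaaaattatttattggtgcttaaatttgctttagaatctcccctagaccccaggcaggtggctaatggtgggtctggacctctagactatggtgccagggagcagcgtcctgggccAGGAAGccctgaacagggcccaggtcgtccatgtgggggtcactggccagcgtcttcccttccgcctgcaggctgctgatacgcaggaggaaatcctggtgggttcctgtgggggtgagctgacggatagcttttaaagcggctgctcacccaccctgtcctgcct
Stab2, 10:87007893-87008192, minus strand: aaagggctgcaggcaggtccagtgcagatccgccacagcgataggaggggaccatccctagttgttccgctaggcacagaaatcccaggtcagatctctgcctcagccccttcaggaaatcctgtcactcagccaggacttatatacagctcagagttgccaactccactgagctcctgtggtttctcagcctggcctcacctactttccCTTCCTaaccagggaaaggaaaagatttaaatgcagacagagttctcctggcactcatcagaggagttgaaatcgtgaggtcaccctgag
Clec4g, 8:3720602-3720901, minus strand: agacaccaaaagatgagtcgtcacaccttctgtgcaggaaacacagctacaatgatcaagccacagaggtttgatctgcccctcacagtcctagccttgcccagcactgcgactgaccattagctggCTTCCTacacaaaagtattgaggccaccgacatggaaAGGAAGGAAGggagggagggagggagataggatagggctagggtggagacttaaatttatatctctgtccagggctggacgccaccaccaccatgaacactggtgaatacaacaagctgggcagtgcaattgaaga
Fcgr2b, 1:170976022-170976321, minus strand: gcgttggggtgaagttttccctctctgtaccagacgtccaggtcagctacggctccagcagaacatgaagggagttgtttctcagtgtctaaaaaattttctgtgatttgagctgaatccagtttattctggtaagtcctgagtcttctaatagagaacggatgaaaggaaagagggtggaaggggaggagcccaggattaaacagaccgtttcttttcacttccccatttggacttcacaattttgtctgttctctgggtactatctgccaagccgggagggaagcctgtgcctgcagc
ETS-family factors and GATA4 are known regulators of endothelial genes. The AGGAAG core began 116 bases before the start in Stab1, 40 bases before it in Stab2 on the opposite strand, and at 3 places in Clec4g, 123 bases before the start on the opposite strand and 86 and 82 bases before it in the run AGGAAGGAAG, where the hits share letters. Fcgr2b and Kdr had none in this window. The Fcgr2b window lies wholly inside the gene span given above, so its RefSeq start is not the outer end of that span. Other starts of Fcgr2b were not searched. In all, 3 of the 5 promoters held the AGGAAG core, against 35.4% of 32851 RefSeq promoters of the same length. The letters GATAA, searched on both strands, were in none of the 5 windows and in 25.4% of all promoters. Other words with GATA were not counted, such as AGATAG in Clec4g and its reverse complement CTATCT in Fcgr2b. The search therefore does not show that these windows lack GATA sites.

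The depth of C26-TDCA libraries was 20.5 to 28.3 M counts (M, 1000000 counts), that of C26 libraries 17.5 to 28.1 M and that of CT libraries 16.5 to 25.3 M, so that 3 counts corresponded to 0.1 to 0.18 CPM. Every member lay far above this floor. The lowest count of any member was 34, for Lyve1 in a CT library, and the other 9 had at least 165 counts in every library. Tumour and CT livers formed separate clusters on the first principal component of all genes (60.7% of the variance), at 22.7 to 46.6 in C26-TDCA, 4.0 to 51.5 in C26 and -92.7 to -85.0 in CT libraries. The 20 most abundant genes took 34.8 to 39.2% of counts in C26-TDCA, 33.1 to 39.9% in C26 and 21.6 to 21.9% in CT libraries. Library C26 2, the shallowest of its group, lay nearest to CT on that component, at 4.0.

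Clec4g was the most abundant member per unit of annotated exon length in all 3 groups. It averaged 84.7 ± 7.39 TPM in C26-TDCA, 75.7 ± 15.2 TPM in C26 (SD, n = 8 each) and 36.3 ± 3.67 TPM in CT livers (SD, n = 6). TPM is a level per annotated exon length, scaled to sum to 1000000 in each library. That length merges all annotated exons of a gene, 2462 bases for Clec4g and 5151 for Dnase1l3, and can exceed the length of a transcript. The order of the members depends on it. Without division by length, Dnase1l3 stood above Clec4g in CT livers, at 44.6 against 31.8 CPM. In CT livers the next places went to Dnase1l3 (24.3 ± 1.83 TPM), Oit3 (23.3 ± 2.91) and Fcgr2b (23.3 ± 2.51), which differed from each other by less than 1 SD. In both tumour groups Fcgr2b was second, at 45.6 ± 3.23 TPM in C26-TDCA and 39.6 ± 6.22 TPM in C26 livers, and stood above the next member by 2.56 times the larger SD of the pair in C26-TDCA and 3.19 times in C26. Stab1, Stab2, Dnase1l3, Oit3, Kdr and Bmp2 followed in an order in which neighbours differed by less than 1 SD. Pecam1 and then Lyve1 came last in each group, less than 1 SD apart in C26 livers, with Lyve1 at 6.86 ± 1.80 TPM in C26-TDCA, 6.86 ± 2.53 TPM in C26 and 2.99 ± 1.24 TPM in CT livers.

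**Figure D1:**
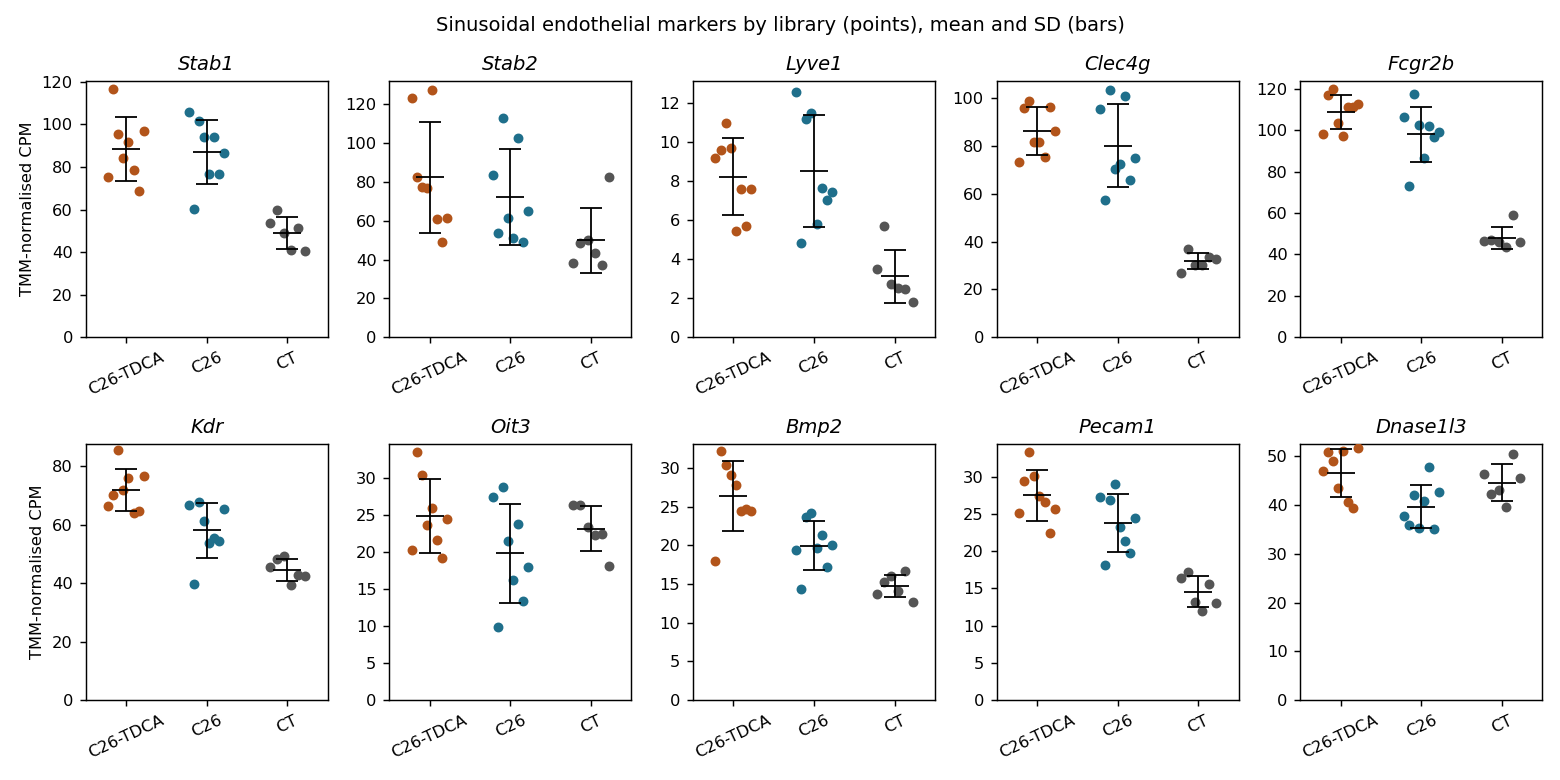
Level of each marker in every library, as TMM-normalised CPM (y axis from 0), for C26-TDCA (n = 8), C26 (n = 8) and CT (n = 6). Points are libraries, and bars are the mean and SD. Clec4g, Fcgr2b, Stab1 and Pecam1 lie higher in both tumour groups with no overlap with CT, whereas Oit3 and Dnase1l3 overlap CT throughout.

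Most of the markers rose with the tumour, with or without TDCA. In C26 livers against CT, 8 of 10 members were called higher, 0 lower and 2 not called by edgeR's quasi-likelihood test (adjusted p under 0.05 over 14785 genes), where 28.9% of all genes tested were called higher and 29.2% lower. The members' median log2 fold change was 0.62, against 0.0 over all genes, and for 4 members no C26 library overlapped a CT library (14.2% of all genes did so, and 15.3% in the lower direction). In C26-TDCA livers against CT, 8 of 10 were called higher and 0 lower, against 28.7% of all genes called higher and 28.2% lower. Here the median was 0.84, against 0.01 over all genes, and 6 members lay wholly above CT (15.4% of all genes, with 16.2% wholly below). The members not called in either comparison were Oit3 and Dnase1l3. At unadjusted p under 0.05, Dnase1l3 was lower in C26 and no member was lower in C26-TDCA, and DESeq2 called 0 members lower in both. Some other settings called Dnase1l3 or Oit3 lower in C26, as given with those genes. Both comparisons use the same 6 CT livers, so they are not independent of each other. In bulk tissue, more cells of a type and more RNA per cell cannot be told apart, and values are relative to the rest of the RNA in each library.

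Among the clearance receptors, Clec4g, Fcgr2b and Lyve1 more than doubled on average in both tumour groups. Clec4g spanned 73.1 to 98.9 CPM in C26-TDCA livers (median 84.0), 57.4 to 103 CPM in C26 livers (median 73.7) and 27.1 to 36.9 CPM in CT livers (median 31.5). Every tumour-bearing liver therefore lay above every CT liver. The log2 fold change of Clec4g was 1.44 in C26-TDCA against CT (SE 0.12, adjusted p = 3.07e-10) and 1.33 in C26 against CT (SE 0.12, adjusted p = 1.15e-09).

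Fcgr2b had the smallest relative spread of the clearance receptors in the tumour groups. It lay between 97.2 and 120 CPM in C26-TDCA livers (median 111), between 73.0 and 118 CPM in C26 livers (median 101) and between 43.7 and 58.8 CPM in CT livers (median 46.3). The groups with tumour were again wholly above CT. Fcgr2b changed by 1.18 on the log2 scale in C26-TDCA (SE 0.09, adjusted p = 5.12e-11) and by 1.03 in C26 (SE 0.09, adjusted p = 5.29e-10), each against CT.

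The stabilins differed from each other in spread. Stab1 ran from a low of 68.8 to a high of 117 CPM in C26-TDCA livers (median 88.1), 60.3 to 106 CPM in C26 livers (median 90.4) and 40.5 to 59.8 CPM in CT livers (median 50.2). The lowest tumour-bearing liver, C26 2, was just above the highest CT liver. Stab1 rose by a log2 fold change of 0.85 in C26-TDCA (SE 0.13, adjusted p = 2.97e-06) and of 0.82 in C26 (SE 0.13, adjusted p = 4.34e-06). Stab2 had a coefficient of variation of 33.5 to 34.8% in the 3 groups, and its values overlapped: 49.2 to 127 CPM in C26-TDCA (median 77.0), 48.8 to 113 CPM in C26 (median 63.2) and 37.1 to 82.4 CPM in CT livers (median 46.0). Its highest CT value, in CT 8, stood apart from the next at 50.3 CPM. Stab2 was called in C26-TDCA against CT (log2 fold change 0.72, SE 0.23, adjusted p = 0.0101), and only just in C26 against CT (0.54, SE 0.23, adjusted p = 0.0498). The C26 call was lost on leaving out any of 9 of the 14 libraries in turn (log2 fold change 0.42 to 0.73, adjusted p 0.00861 to 0.118). It was also lost with DESeq2 (adjusted p = 0.056) and after removal of a trend with gene length and GC content, where the log2 fold change was 0.38 (adjusted p = 0.157). For C26-TDCA against CT that removal gave 0.44 for Stab2 (adjusted p = 0.0952).

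Lyve1 was the scarcest member and had the largest fold change in C26 livers. Its level was 5.42 to 10.9 CPM in C26-TDCA (median 8.39), 4.84 to 12.6 CPM in C26 (median 7.54) and 1.79 to 5.67 CPM in CT livers (median 2.65). In each tumour group 7 of 8 livers exceeded the highest CT liver. The log2 fold change of Lyve1 was 1.40 in C26-TDCA (SE 0.24, adjusted p = 2.5e-05) and 1.46 in C26 (SE 0.24, adjusted p = 1.47e-05). Of the lymphatic markers, Mmrn1 averaged 0.482 CPM in C26-TDCA, 0.631 CPM in C26 and 0.256 CPM in CT livers, and was called higher in C26 livers only (log2 fold change 1.36, adjusted p = 0.0341). Ccl21a was not in the table, and Prox1, which hepatocytes also express, averaged 218 CPM in C26-TDCA, 188 CPM in C26 and 140 CPM in CT livers. The part of lymphatic vessels in the rise of Lyve1 was not tested.

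The general endothelial members rose less than the lectin and the Fc receptor. Pecam1 measured 22.4 to 33.3 CPM in C26-TDCA livers (median 26.9), 18.1 to 29.1 CPM in C26 livers (median 23.8) and 11.9 to 17.2 CPM in CT livers (median 14.3), with no overlap between tumour and CT livers. It gave a log2 fold change of 0.92 in C26-TDCA (SE 0.11, adjusted p = 1.16e-07) and of 0.71 in C26 (SE 0.11, adjusted p = 5.12e-06). Kdr took values of 63.9 to 85.4 CPM in C26-TDCA (median 71.0), 39.7 to 67.7 CPM in C26 (median 58.3) and 39.2 to 49.4 CPM in CT livers (median 44.1). In C26 livers 7 of 8 values of Kdr exceeded all CT values, and C26 2 lay at the lower end of the CT range. Kdr rose by a log2 fold change of 0.69 in C26-TDCA (SE 0.10, adjusted p = 1.45e-06) and of 0.38 in C26 (SE 0.10, adjusted p = 0.00153). With the replicate number as a block and the trend with length and GC content removed, the C26 value of Kdr was 0.24 and was not called (adjusted p = 0.087).

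The secreted members divided into one that rose and a pair that were not called. Bmp2 was at 18.0 to 32.1 CPM in C26-TDCA livers (median 26.2), 14.3 to 24.1 CPM in C26 livers (median 19.8) and 12.7 to 16.6 CPM in CT livers (median 14.6). C26-TDCA livers were wholly above CT, and 7 of 8 C26 livers exceeded the highest CT value. Bmp2 increased by 0.84 on the log2 scale in C26-TDCA (SE 0.12, adjusted p = 1.24e-06) and by 0.44 in C26 (SE 0.12, adjusted p = 0.00236). Once the trend with length and GC content was removed, the C26 value was 0.25 and was not called (adjusted p = 0.0592).

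For Oit3 and Dnase1l3, tumour-bearing and CT livers overlapped and neither was called. Oit3 lay at 19.2 to 33.5 CPM in C26-TDCA (median 24.1), 9.85 to 28.8 CPM in C26 (median 19.7) and 18.1 to 26.4 CPM in CT livers (median 22.9). Its C26 group was the widest of the 3 and enclosed the whole CT range. The log2 fold change of Oit3 was 0.10 in C26-TDCA (95% interval -0.25 to 0.45, adjusted p = 0.65) and -0.22 in C26 (-0.57 to 0.13, adjusted p = 0.301). With the replicate block and the trend removed together, Oit3 was called lower in C26 livers (log2 fold change -0.49, adjusted p = 0.032). Dnase1l3 lay at 39.3 to 51.8 CPM in C26-TDCA (median 48.1), 35.1 to 47.8 CPM in C26 (median 39.2) and 39.6 to 50.5 CPM in CT livers (median 44.3). Only 1 of 8 C26 livers exceeded the CT median of Dnase1l3. Its log2 fold change was 0.07 in C26-TDCA (95% interval -0.09 to 0.22, adjusted p = 0.5) and -0.17 in C26 (-0.32 to -0.01, adjusted p = 0.0756). After removal of the trend alone, Dnase1l3 was called lower in C26 livers (log2 fold change -0.26, adjusted p = 0.0113), and its C26-TDCA value changed sign to -0.07 (adjusted p = 0.474). Dnase1l3 was also called lower in C26 without C26 6 (-0.21, adjusted p = 0.0213) and without CT 6 (-0.20, adjusted p = 0.0453).

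**Figure D2:**
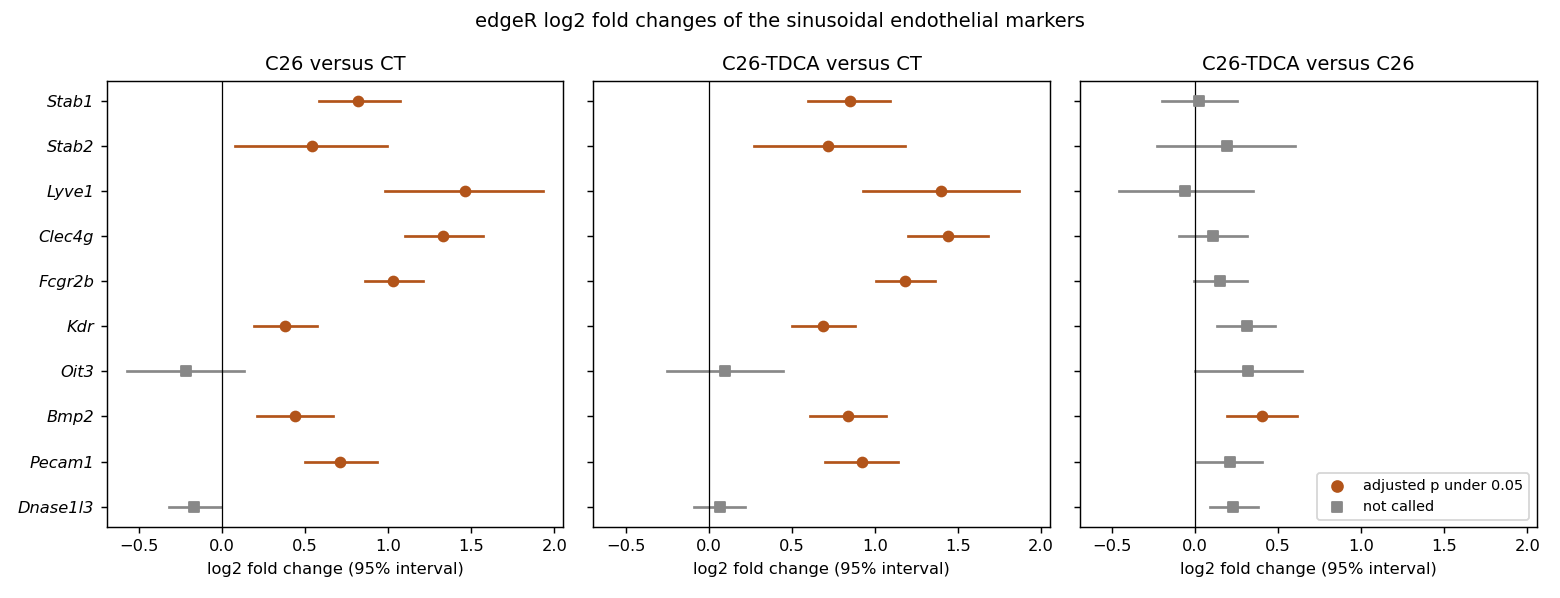
edgeR log2 fold change (x axis) of each marker (y axis) with its approximate 95% interval, for C26 against CT, C26-TDCA against CT and C26-TDCA against C26. Circles passed an adjusted p of 0.05 over 14785 genes and squares did not. The intervals of Clec4g, Fcgr2b, Stab1, Lyve1 and Pecam1 lie well above 0 in both comparisons with CT, and in the third panel Bmp2 alone was called.

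Relative to Pecam1 in the same library, a ratio that does not depend on how libraries are scaled, the members kept different balances. The log2 ratio of Oit3 to Pecam1 was -0.34 to 0.19 in C26-TDCA (median -0.18), -0.88 to 0.15 in C26 (median -0.44) and 0.47 to 0.90 in CT livers (median 0.66). For Dnase1l3 the log2 ratio was 0.53 to 1.01 in C26-TDCA (median 0.80), 0.28 to 1.16 in C26 (median 0.81) and 1.30 to 1.80 in CT livers (median 1.71). In both genes every tumour-bearing liver had a lower ratio than every CT liver. The mean difference from CT was -0.83 in C26-TDCA and -1.0 in C26 for Oit3, and -0.86 in C26-TDCA and -0.88 in C26 for Dnase1l3.

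Clec4g shifted the other way against Pecam1. Its log2 ratio was 1.44 to 2.11 in C26-TDCA (median 1.57), 1.27 to 2.24 in C26 (median 1.70) and 0.73 to 1.34 in CT livers (median 1.16). C26-TDCA livers did not overlap CT, and C26 livers did. For Stab1, Stab2, Lyve1, Fcgr2b, Kdr and Bmp2 the ratio overlapped CT in both tumour groups, with mean differences from -0.34 (Kdr in C26) to 0.77 (Lyve1 in C26). Ratios to Pecam1 show unequal change between genes and not which of them changed.

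**Figure D3:**
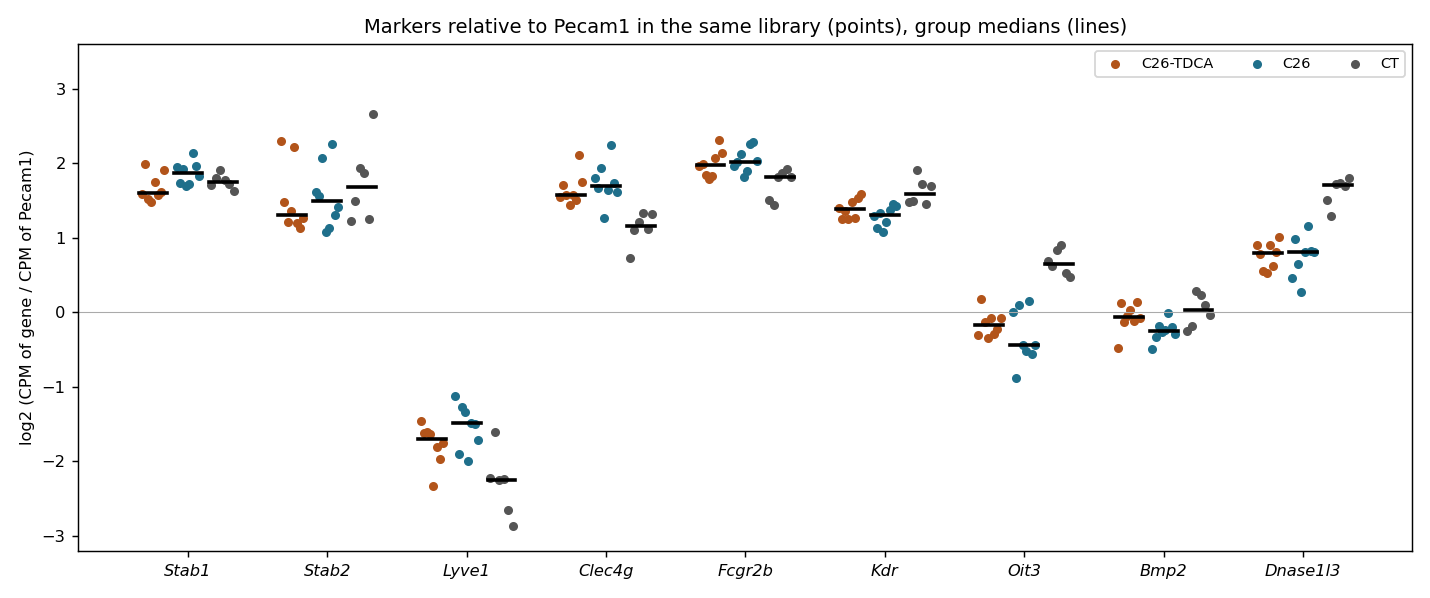
Log2 ratio of each marker's CPM to that of Pecam1 in the same library (y axis) for the other 9 markers (x axis), with points for libraries and lines for group medians of C26-TDCA, C26 and CT. Oit3 and Dnase1l3 lie lower in all 16 tumour-bearing livers than in all 6 CT livers, with CT medians of 0.66 and 1.71. Clec4g lies higher than CT in all 8 C26-TDCA livers and overlaps CT in C26.

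Given TDCA, tumour-bearing mice differed from those without it in 1 called marker, Bmp2. In C26-TDCA livers against C26, 1 of 10 members was called higher, 0 lower and 9 not called, against 1.73% of all genes tested called higher and 0.237% lower. The log2 fold change was above 0 for 9 members and below 0 for Lyve1, with a median of 0.20, against -0.01 over all genes. No member separated the groups without overlap (0.0947% of all genes did so with C26-TDCA higher, and 0.0541% with C26-TDCA lower). Unadjusted p was under 0.05 for 4 members, all higher in C26-TDCA, which were Bmp2, Kdr, Dnase1l3 and Pecam1. DESeq2 called 2 higher and 0 lower, against 440 higher and 111 lower over all genes. The share of all genes at unadjusted p under 0.05 was not counted, so the 4 members cannot be set against it. The same holds for such counts of the other lists below.

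Bmp2 had a log2 fold change of 0.40 between C26-TDCA and C26 livers (SE 0.11, 95% interval 0.19 to 0.61, adjusted p = 0.0483), and 7 of 8 C26-TDCA livers exceeded the highest C26 liver. C26-TDCA 1 was the exception, at 18.0 CPM. The call for Bmp2 held on leaving out 5 of the 16 libraries and was lost on leaving out any of the other 11, at log2 fold changes of 0.34 to 0.46 and adjusted p of 0.0221 to 0.114. It was also lost, at similar log2 fold changes, with upper-quartile scaling (0.37, adjusted p = 0.0718), in a fit of these 2 groups alone (0.40, adjusted p = 0.105), with the replicate block (0.39, adjusted p = 0.113), with the trend removed (0.45, adjusted p = 0.0838) and with both (0.44, adjusted p = 0.189).

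Kdr had a log2 fold change of 0.31 (SE 0.09, 95% interval 0.13 to 0.48, adjusted p = 0.0717), and all 8 C26-TDCA livers exceeded the C26 median. DESeq2 called it (adjusted p = 0.027). Dnase1l3 gave 0.23 (interval 0.09 to 0.38, adjusted p = 0.103), again with all 8 C26-TDCA livers above the C26 median. For Pecam1 the value was 0.21 (0.01 to 0.40, adjusted p = 0.307) and for Oit3 0.32 (0.0 to 0.64, adjusted p = 0.351). The receptors showed no called difference. Their log2 fold changes and 95% intervals were 0.02 (-0.20 to 0.25) for Stab1, 0.19 (-0.23 to 0.60) for Stab2, -0.06 (-0.46 to 0.35) for Lyve1, 0.11 (-0.10 to 0.31) for Clec4g and 0.15 (-0.01 to 0.31) for Fcgr2b.

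One C26 library set the lower edge of its group for most members. C26 2 was the lowest of the C26 libraries for 8 of the 10 members, with a summed level of 367 CPM, and C26 7 was the lowest for Stab2 and Dnase1l3. C26 3 was the highest for 5 members, at a sum of 636 CPM. The members summed to 502 to 637 CPM in C26-TDCA, 367 to 636 CPM in C26 and 288 to 347 CPM in CT livers, so C26 2 was nearest to CT here too. Without C26 2, 8 members were still called higher in C26 against CT, with log2 fold changes of 0.89 for Stab1, 0.44 for Kdr and 0.76 for Pecam1. Between C26-TDCA and C26 no member was then called, Bmp2 giving 0.34 (adjusted p = 0.0702) and Oit3 0.22.

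Within the tumour-bearing livers the members varied together. After centring on group means, all 45 pairs of members had a positive Pearson r over the 16 libraries, with a median of 0.63 and a range of 0.09 (Lyve1 with Dnase1l3) to 0.94 (Stab1 with Oit3). The r exceeded 0.5 in 29 pairs. Oit3 tracked the mean of the other 9 most closely (r = 0.98), followed by Stab1 (0.91) and Kdr (0.84), and Stab2 (0.49) and Dnase1l3 (0.46) least. Oit3 thus varied with the other markers among tumour-bearing livers, although its level was not called different from CT. Without C26 2 the median r was 0.51, with 44 of 45 pairs positive, and without C26 2 and C26 3 it was 0.48, with 41 positive. The r of Stab1 with Oit3 was 0.91 in both cases. These correlations describe libraries that share their scaling and total, and they carry no test. No r among pairs of other genes was taken for comparison, so the values are not shown to be particular to the members.

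**Figure D4:**
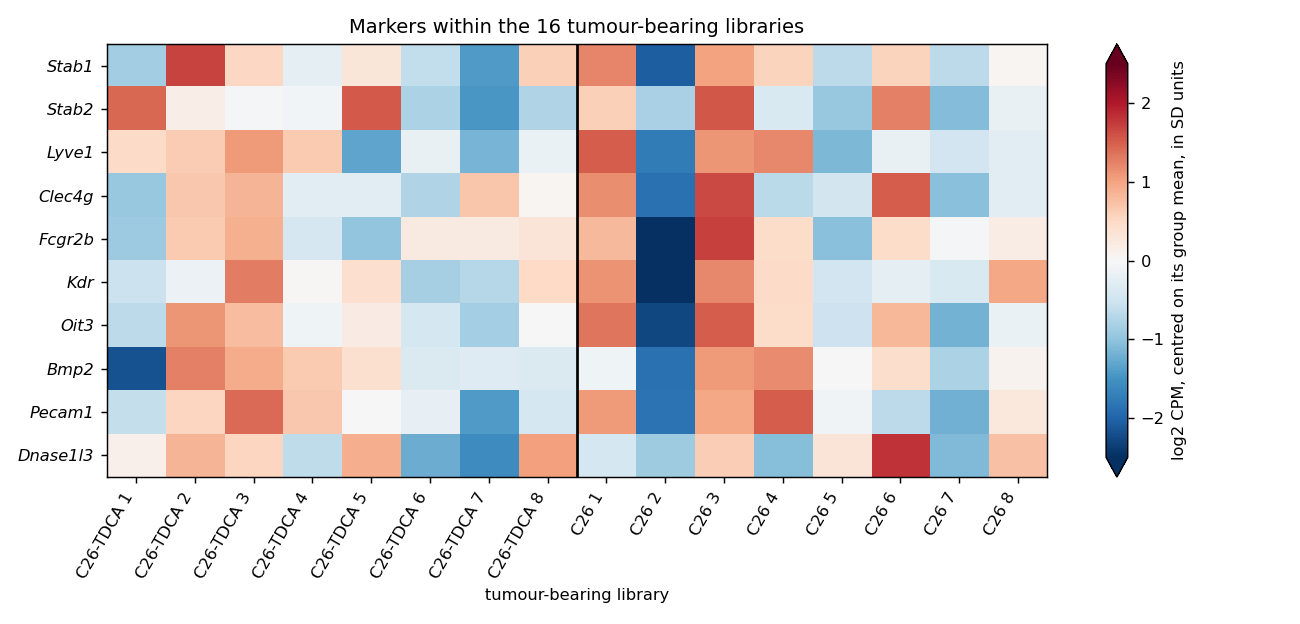
Heat map of the 10 markers (rows) in the 16 tumour-bearing libraries (columns, C26-TDCA left and C26 right of the line), coloured by log2 CPM centred on the group mean and divided by the SD over these libraries. C26 2 is low and C26 3 is high for nearly all markers, and C26-TDCA 7 is the lowest of its group for 5, whereas Stab2 and Dnase1l3 follow the common pattern least.

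The genes whose levels followed the members' mean most closely over these 16 libraries were Pxdn, a peroxidase that cross-links collagen IV (r = 0.96), Chpf, a chondroitin synthesis factor (0.95), Adam23 (0.95), Flt4, which encodes VEGF receptor 3 (0.93), and Slc43a3, a purine nucleobase transporter (0.93). Pxdn averaged 21.04 CPM in C26-TDCA, 17.1 CPM in C26 and 8.00 CPM in CT livers, and rose by a log2 fold change of 1.40 in C26-TDCA (adjusted p = 5.65e-07) and 1.11 in C26 (adjusted p = 1.5e-05). Adam23, a member of the ADAM family without protease activity, averaged 55.1 CPM in C26-TDCA, 47.4 CPM in C26 and 10.5 CPM in CT livers. None of the 5 was called between C26-TDCA and C26.

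Many other endothelial genes moved in the same direction as the members. Over all genes, 28.7% were called higher and 28.2% lower in C26-TDCA against CT, and 28.9% higher and 29.2% lower in C26. Of 21 further genes linked to sinusoidal endothelium, 15 rose, 1 fell and 5 were not called in C26-TDCA against CT (median log2 fold change 0.96), and 15 rose, 3 fell and 3 were not called in C26 against CT (median 0.64). Tspan7, a tetraspanin, averaged 40.7 CPM in C26-TDCA, 36.9 CPM in C26 and 12.35 CPM in CT livers. Plxnc1, a semaphorin receptor, averaged 87.7 CPM in C26-TDCA, 66.3 CPM in C26 and 20.2 CPM in CT livers. The gene that fell in C26-TDCA was Bmp6, described with the BMP genes below. Of 25 genes expressed by endothelium in general, 18 rose and 0 fell in C26-TDCA (median 0.64), and 17 rose and 0 fell in C26 (median 0.46). Cdh5, the junction protein VE-cadherin, averaged 37.1 CPM in C26-TDCA, 33.6 CPM in C26 and 16.8 CPM in CT livers, with log2 fold changes of 1.15 in C26-TDCA (adjusted p = 1.01e-07) and 1.0 in C26 (adjusted p = 7.73e-07). Nos3, endothelial nitric oxide synthase, averaged 6.73 CPM in C26-TDCA, 6.66 CPM in C26 and 2.29 CPM in CT livers.

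Genes of continuous capillaries and larger vessels, which include features taken on in capillarisation, also rose. The shares over all genes were again 28.7% higher and 28.2% lower in C26-TDCA, and 28.9% higher and 29.2% lower in C26. Of 14 tested, 12 rose and 1 fell in C26-TDCA (median 1.13), and 11 rose and 1 fell in C26 (median 1.18), each against CT. Plvap, the protein of fenestral diaphragms, averaged 70.4 CPM in C26-TDCA, 68.7 CPM in C26 and 28.3 CPM in CT livers. The collagen IV chains rose, with Col4a1 at 76.6 CPM in C26-TDCA, 88.0 CPM in C26 and 23.9 CPM in CT livers, although stellate cells also make them. Of 11 genes of endothelial activation and leukocyte adhesion, 8 rose and 1 fell in C26-TDCA (median 1.08), and 7 rose and 2 fell in C26 (median 0.97). Icam1, a ligand for leukocyte integrins, averaged 29.9 CPM in C26-TDCA, 30.5 CPM in C26 and 6.15 CPM in CT livers, and Selp, P-selectin, 11.85 CPM in C26-TDCA, 9.93 CPM in C26 and 1.38 CPM in CT livers.

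Between C26-TDCA and C26, calls in the endothelial lists were few. Those made were higher in C26-TDCA, as were most calls over all genes (1.73% of genes higher and 0.237% lower). They were 2 of the 21 sinusoidal genes, F8 and Plxnc1, 3 of the 25 general endothelial genes, Ptprb, Adgrl4 and Calcrl, and 0 of the large-vessel and activation genes (2 of each at unadjusted p under 0.05, and 0 and 1 by DESeq2). F8, which encodes coagulation factor VIII and is made in liver by endothelium, averaged 33.3 CPM in C26-TDCA and 21.3 CPM in C26 livers (log2 fold change 0.64, SE 0.10, adjusted p = 0.00518). Ptprb, the endothelial phosphatase VE-PTP, averaged 105 CPM in C26-TDCA and 65.3 CPM in C26 livers (log2 fold change 0.68, adjusted p = 0.0174). The 256 higher calls over all genes became 9 with the length and GC trend removed and 19 with the replicate block. With both, no gene was called, so none of the calls in these lists held there. How each of these genes fared in the other settings is not given here.

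Vegfa fell in both tumour groups, whereas Kdr rose. Vegfa, the main ligand of the Kdr product, averaged 125 ± 7.08 CPM in C26-TDCA, 124 ± 10.6 CPM in C26 (SD, n = 8 each) and 209.5 ± 10.9 CPM in CT livers (SD, n = 6), with no tumour-bearing liver in the CT range. The log2 fold change of Vegfa was -0.75 in each tumour group (SE 0.06, adjusted p = 1.9e-10 in C26-TDCA and 1.81e-10 in C26). Of 9 VEGF ligands, receptors and co-receptors tested, Kdr included, 6 rose and 2 fell against CT in each tumour group. Those that fell were Vegfa and Vegfb. Over all genes 28.7% were called higher and 28.2% lower in C26-TDCA, and 28.9% higher and 29.2% lower in C26. The share of this list that fell was therefore not above that of all genes. Vegfc, a ligand of VEGF receptor 3, rose by a log2 fold change of 0.74 in C26-TDCA (adjusted p = 2.6e-05) and 0.93 in C26 (adjusted p = 1.21e-06). Nrp1, a co-receptor, averaged 154 CPM in C26-TDCA, 144 CPM in C26 and 64.6 CPM in CT livers, and Flt4 44.2 CPM in C26-TDCA, 37.2 CPM in C26 and 23.85 CPM in CT livers. Between C26-TDCA and C26, edgeR called 0 of the 9 (3 higher at unadjusted p under 0.05, 2 by DESeq2).

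Bmp2 and Bmp6, the BMP ligands of sinusoidal endothelium that act on hepcidin, also went opposite ways. Bmp6 averaged 1.71 ± 0.361 CPM in C26-TDCA, 1.66 ± 0.377 CPM in C26 (SD, n = 8 each) and 3.35 ± 0.242 CPM in CT livers (SD, n = 6), and the tumour-bearing livers lay wholly below CT. Its log2 fold change was -0.96 in C26-TDCA (SE 0.16, adjusted p = 1.39e-05) and -1.0 in C26 (SE 0.16, adjusted p = 8.55e-06). Hamp, which encodes hepcidin, averaged 335 ± 108 CPM in C26-TDCA, 261 ± 94.9 CPM in C26 and 312 ± 81.8 CPM in CT livers, and was not called in any comparison. Its log2 fold change was 0.10 in C26-TDCA against CT (adjusted p = 0.733), -0.26 in C26 against CT (adjusted p = 0.367) and 0.36 in C26-TDCA against C26 (adjusted p = 0.448). Of 22 genes of BMP signalling and hepcidin control, Bmp2 included, 11 rose and 5 fell in C26-TDCA, and 10 rose and 5 fell in C26, against CT. Over all genes 28.7% were called higher and 28.2% lower in C26-TDCA, and 28.9% higher and 29.2% lower in C26, so the share of this list that fell was not above that of all genes. Smad1, which carries BMP signals, rose by a log2 fold change of 0.91 in C26-TDCA and 0.92 in C26. Tmprss6, a hepatocyte protease that lowers BMP signalling, fell by 0.89 in C26-TDCA and by 0.71 in C26. Smad4, Smad7 and Neo1 were also called lower in both comparisons with CT, and Chrd was called higher in both. Id1, Id2 and Id3 were not called in either. Between C26-TDCA and C26 the genes called were Bmp2 and Bmpr2, a BMP receptor (49.0 CPM in C26-TDCA and 35.3 CPM in C26 livers, log2 fold change 0.47, adjusted p = 0.0143). Neither was called with the replicate block and trend removal together, where no gene was.

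Of the 6 Fc receptor genes, Fcgr2b included, 5 rose and 0 fell in each tumour group against CT. Over all genes, 28.7% were called higher in C26-TDCA and 28.9% in C26. Fcgr3, an activating IgG receptor of macrophages, averaged 28.8 CPM in C26-TDCA, 29.9 CPM in C26 and 12.2 CPM in CT livers, so that its log2 fold changes of 1.25 in C26-TDCA and 1.30 in C26 were near those of Fcgr2b. Of 10 endothelial Wnt ligands and pericentral targets, 1 rose and 4 fell in C26-TDCA (28.7% higher and 28.2% lower over all genes), and 1 rose and 3 fell in C26 (28.9% and 29.2% over all genes). The ligands Wnt2 and Wnt9b were not called in either comparison. Rspo3, a Wnt enhancer made by central vein endothelium, was the gene that rose (4.56 CPM in C26-TDCA, 4.24 CPM in C26 and 2.97 CPM in CT livers). The Wnt target Axin2 averaged 4.24 CPM in C26-TDCA, 4.70 CPM in C26 and 7.01 CPM in CT livers. It was called lower in both comparisons, as were Rnf43 and Lect2, and Tbx3 was called lower in C26-TDCA only. Glul, Lgr5 and Znrf3 were not called in either comparison. In C26 the share of this list that fell was near that of all genes.

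Marker lists of some other liver cell types also held many genes called higher in tumour-bearing livers. The counts that follow stand against 28.7% of all genes called higher and 28.2% lower in C26-TDCA, and 28.9% higher and 29.2% lower in C26. The 13 Kupffer cell markers summed to 824 to 988 CPM in C26-TDCA, 816 to 994 CPM in C26 and 605 to 731 CPM in CT livers, and 11 of them rose and 1 fell in each comparison with CT. The 12 stellate cell markers summed to 487 to 676 CPM in C26-TDCA, 400 to 631 CPM in C26 and 294 to 375 CPM in CT livers, with 9 higher and 1 lower in C26-TDCA and 8 higher and 2 lower in C26. Of the 11 monocyte and neutrophil markers tested, 9 rose and 0 fell in each comparison (sums of 46.7 to 105 CPM in C26-TDCA, 49.7 to 130 CPM in C26 and 34.9 to 47.2 CPM in CT livers). The 5 platelet markers in the table summed to 27.1 to 49.9 CPM in C26-TDCA, 18.6 to 53.8 CPM in C26 and 7.61 to 11.1 CPM in CT livers, with 3 higher in C26-TDCA and 4 in C26. Cholangiocyte markers summed to 273 to 654 CPM in C26-TDCA, 257 to 786 CPM in C26 and 33.9 to 51.0 CPM in CT livers, mainly through Spp1, and of 7 tested 2 rose in C26-TDCA, near the share over all genes, and 3 in C26. Krt19, Krt7, Epcam and Tspan8 were not called in either comparison. B cell markers, which bear on Fcgr2b, summed to 6.01 to 13.1 CPM in C26-TDCA, 7.29 to 24.0 CPM in C26 and 11.4 to 20.4 CPM in CT livers, and of 8 none rose while 3 fell in C26-TDCA and 1 fell in C26, where the other 7 were not called.

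The 10 hepatocyte markers summed to 36570 to 46620 CPM in C26-TDCA, 32970 to 44940 CPM in C26 and 67130 to 76560 CPM in CT livers. The lower sum was mainly that of albumin (Alb), which averaged 14130 CPM in C26-TDCA, 15180 CPM in C26 and 42190 CPM in CT livers. The counts were 3 higher and 3 lower in C26-TDCA and 2 higher and 4 lower in C26, near the shares over all genes in C26-TDCA. Besides albumin, Ttr was called lower, with a log2 fold change of -1.98 in C26-TDCA (adjusted p = 1.28e-10) and -1.8 in C26 (adjusted p = 6.55e-10). Cps1 was also lower in both (-0.45 in C26-TDCA and -0.82 in C26), and Ass1 in C26 only (-0.51). Tat, tyrosine aminotransferase, rose by a log2 fold change of 1.51 in C26-TDCA and 1.34 in C26. Hnf4a, a transcription factor of hepatocytes, rose by 0.45 in C26-TDCA and 0.40 in C26. Apoa1 and Serpina1e were not called in either comparison. Among the markers of these lists that were in the table, none was at 0 in all libraries of a group, and Ly6g, Gp9, Gp1bb, Gp6, Cftr and Ccl21a were not in the table. The part of these other cell types, and of the lower albumin RNA, in the rise of the sinusoidal markers was not tested. Between C26-TDCA and C26, edgeR called 0 genes in the Kupffer (3 at unadjusted p under 0.05, 1 by DESeq2), stellate (3 and 2), B cell (1 and 0), monocyte and neutrophil, platelet, lymphatic and cholangiocyte lists (0 and 0 each), and Apob was the 1 hepatocyte gene called.

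**Figure D5:**
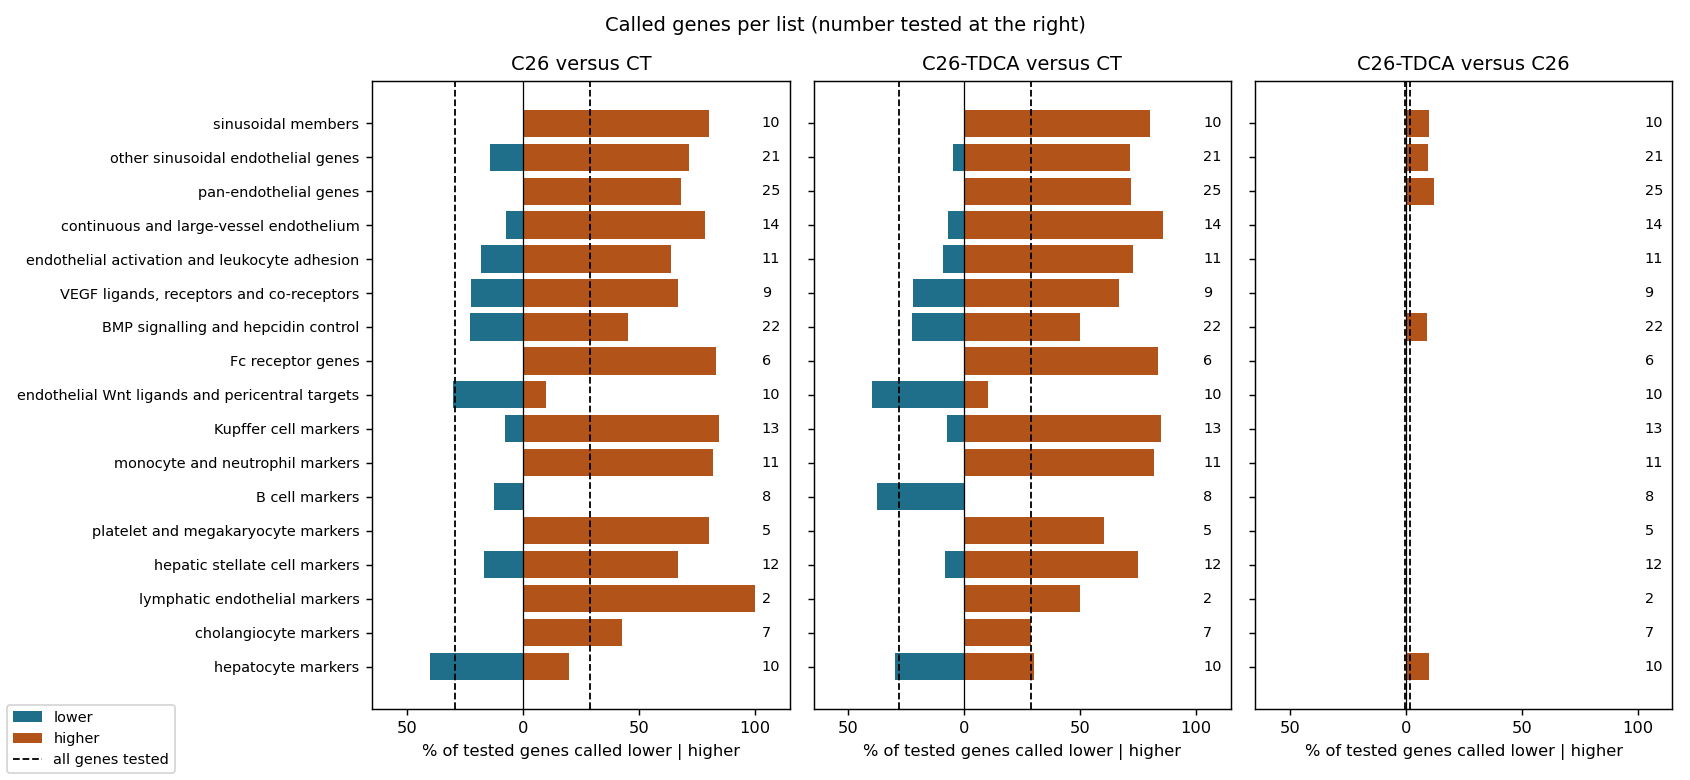
Share of tested genes called lower (left of 0) or higher (right of 0) by edgeR in each list, in %, for C26 against CT, C26-TDCA against CT and C26-TDCA against C26, with the number tested at the right of each panel. Dashed lines mark the share over all genes tested, 28.9% higher in the first panel. Endothelial, Kupffer, stellate and monocyte lists reach beyond that line in both comparisons with CT, and the Wnt, B cell and hepatocyte lists do not reach it in C26 against CT.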

How the data were processed

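Liver polyA RNA of 22 mice was sequenced, and the authors deposited raw counts of reads per Ensembl gene, which were used as they are. Per the submitters' processing notes, GRCm38 was the build, with HISAT2 2.2.1, featureCounts 2.0.3, Trimmomatic 0.40, bcl2fastq 2.17, FastQC and DESeq2 1.42.0 among the tools. The sources used here state no annotation release, strand setting or rule for reads that match several genes.

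Symbols, loci and exon lengths came from GENCODE M21 (10 of 15448 genes had no symbol). Genes were filtered with filterByExpr at a minimum count of 10, which kept 14785 genes and all 10 members, and scaled with TMM. One model over all 22 libraries, with a mean per group, was fitted with edgeR 4.0.16 (quasi-likelihood F test, R 4.3.3), and p-values were adjusted by Benjamini-Hochberg over all genes tested. SE is the log2 fold change divided by the square root of F, and 95% intervals are 1.96 SE to each side. Levels, ratios and correlations were described without a test. The fit was also run on simulated counts with far fewer changed genes than were called here against CT. That run therefore does not check the scaling of these data. Libraries are separate mice of each group by their labels, and groups were taken from those labels. The replicate numbers were not taken to pair the libraries, and a fit with them as a block is given with the alternatives. The members, lists and tests were chosen with earlier results of these data known. Named genes were all members, in each other list the called genes of lowest p (up to 4, or up to 2 uncalled ones where a list had no call), the 5 genes nearest to the members' mean, and Hamp, Vegfa, Cdh5, Bmp6 and Alb.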

Additional observations from a re-analysis of the deposited data

Results flagged for a closer look

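Values of the 10 members were examined in each of the 3 groups, 30 groups of libraries in all, for a library far from the others by Dixon's test, and chance flags about 1 in 20 such groups. In CT livers Stab2 was at 82.4 CPM in CT 8, against 50.3 CPM in the next highest CT library. This gap was 0.708 of the CT range, above the critical value of 0.625. Without CT 8, the log2 fold change of Stab2 was 0.92 in C26-TDCA against CT (adjusted p = 0.00157) and 0.73 in C26 against CT (adjusted p = 0.00861).

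Fcgr2b was at 58.8 CPM in CT 7, against 46.8 CPM in the next highest CT library, a gap of 0.794 of the range (critical value 0.625). Without CT 7, the log2 fold change of Fcgr2b was 1.25 in C26-TDCA against CT and 1.10 in C26 against CT.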

How the results depend on the processing

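In C26-TDCA against CT and in C26 against CT, the count of members called stayed within 1.5 times its value under every alternative run (DESeq2 size factors, upper-quartile scaling, DESeq2, no filter, 2 groups alone, removal of the length and GC trend, the replicate block, and without C26 1 and C26-TDCA 8 together). Leaving out each library gave 8 in C26-TDCA and 7 to 8 in C26. These counts take calls in either direction, so they do not show that all calls stayed higher. In C26 against CT with the trend removed, Dnase1l3 was called lower, and Stab2 and Bmp2 were not called. With block and trend removal together, Oit3 was called lower, and Stab2, Kdr and Bmp2 were not called. Stab2 was not called in C26-TDCA against CT in either setting. In C26-TDCA against C26, the count of 1 was 2 with DESeq2 and without C26 1 and C26-TDCA 8 (Bmp2 and Kdr), and 0 with upper-quartile scaling, in the fit of 2 groups, after removal of the length and GC trend, with the replicate block, and with both of these. Leaving out each library gave 0 to 2, and the causes were not tested. Over all genes, 256 higher and 35 lower became 440 and 111 with DESeq2, 41 and 4 in the fit of 2 groups, 9 and 5 with the trend removed, 19 and 2 with the replicate block, 0 and 0 with both, and 691 and 94 without C26 1 and C26-TDCA 8. Leaving out each library gave 54 to 527 higher and 5 to 67 lower. The share of calls that were higher was 88.0%, against 64.3% with the trend removed.

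Signs changed only for values near 0. In C26-TDCA against CT, Dnase1l3 was -0.07 with the trend removed and -0.05 with the replicate block as well, where Oit3 was -0.01. In C26-TDCA against C26, Stab1 was -0.0017 with upper-quartile scaling and -0.04 to 0.07 on leaving out each library, and Lyve1 was 0.06 without C26 1 and C26-TDCA 8 and -0.14 to 0.04 on leaving out each library. With block and trend removal together, C26 against CT gave 0.24 for Kdr (adjusted p = 0.087), 0.17 for Bmp2 (adjusted p = 0.159) and -0.49 for Oit3 (adjusted p = 0.032). Same-numbered libraries of C26-TDCA and C26 correlated at -0.2 to 0.34, and 2 of 8 matched their own number best. For C26-TDCA and CT the values were -0.01 to 0.13 and 3 of 6, and for C26 and CT -0.08 to 0.05 and 0 of 6. Low depth limits Lyve1 most, at 34 counts in its lowest library.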
